A study of Canis lupus familiaris with 77 samples.

Results

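The 2 mature arms of miR-126 were followed across a miRNA atlas of the dog. Members were the rows of the deposited table whose name, up to its first _ sign, was cfa-miR-126 (the 5p arm, whose row also carries the human and rat 5p names) or hsa-miR-126-3p (the 3p arm, listed under its human and rat names). They are 2 of the 650 miRNAs that had at least 1 read. The samples, 76 libraries of small RNA sequenced by miR-seq, came from 16 tissues. The dogs were male Beagles without any treatment, aged 10 months and perfused with buffered saline before the organs were taken. There were 5 libraries for each of 14 tissues (liver, heart, testis, lung, skeletal muscle, kidney, thymus, brain, pancreas, duodenum, jejunum, ileum, bone marrow and plasma), 4 for colon and 2 for sciatic nerve. Each tissue is compared with the other tissues. The study took organs from 5 dogs, and the sample labels carry no dog number. The study describes its sciatic nerve libraries once as single samples beside a pool and once as parts of 1 pool. A further nerve library, named as a pool in the table, matched no sample label and was not used, and the spread of the 2 used here may be technical.

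A miRNA hairpin is cut into a short duplex, and either strand, the 5p arm or the 3p arm, can be loaded into an Argonaute protein and guide it to target mRNAs. miR-126 is encoded in an intron of EGFL7, a gene of endothelial cells, the cells that line blood vessels, and the dog gene table also places MIR126 inside EGFL7. The 3p arm is known for its repression of SPRED1 and PIK3R2, negative regulators of VEGF signalling, and is needed for normal vessel integrity. Both arms are also found in platelets and in some blood cell precursors. A whole organ holds endothelial cells among many other cells, so fewer endothelial cells and less miR-126 per cell cannot be told apart here. The libraries hold no mRNA, so markers such as PECAM1 were not measured.

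Levels are given as RPM, the reads of a miRNA per 1000000 reads on all miRNAs of that library, and are means ± SD unless stated. Each read is 1 mature miRNA, so no scaling by length is needed. The libraries had 157871 to 7896424 reads on miRNAs (median 1364823), and bone marrow was the shallowest tissue (162310 to 239023 reads). In the shallowest library 3 reads, the limit that a count of 0 allows, equal 19.0 RPM, and both arms exceeded it in all 76 libraries. The lowest count was 17 reads of the 3p arm in 1 plasma library. Ligation of adaptors favours some ends over others, so the reads of 2 different miRNAs do not give the ratio of their molecules.

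The tissue labels were checked with 1 defining miRNA per tissue. In 9 of 71 libraries, from 4 tissues, that miRNA was below 15% of the highest library of the same tissue, a limit set after the values were seen. No other library was below 20.9%. The 9 libraries were thymus replicates 2, 3 and 5 (cfa-miR-181a), duodenum replicates 3, 4 and 5 (cfa-miR-215), testis replicates 2 and 3 (cfa-miR-202) and skeletal muscle replicate 4 (cfa-miR-206). They stand apart from their tissue, and results that rest on them are given with and without them. The lung label could not be checked in this way, since cfa-miR-34b, chosen as its marker, was at 0 to 7.95 RPM there.

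Lung held the most miR-126. The 5p arm was at 64176, 46480, 50505, 42512 and 40874 RPM in the lung libraries (48909 ± 9314, n = 5), which was 4.89% of all miRNA reads and the sixth highest miRNA of the tissue. The 3p arm was at 8931, 7122, 7581, 5022 and 5239 RPM (6779 ± 1647, n = 5). All 5 lung libraries exceeded every other library for the 3p arm, the highest of which was a heart library with 3937 RPM. For the 5p arm, 2 lung libraries lay above all others and the ranges of lung and heart overlapped.

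**Figure D1:**
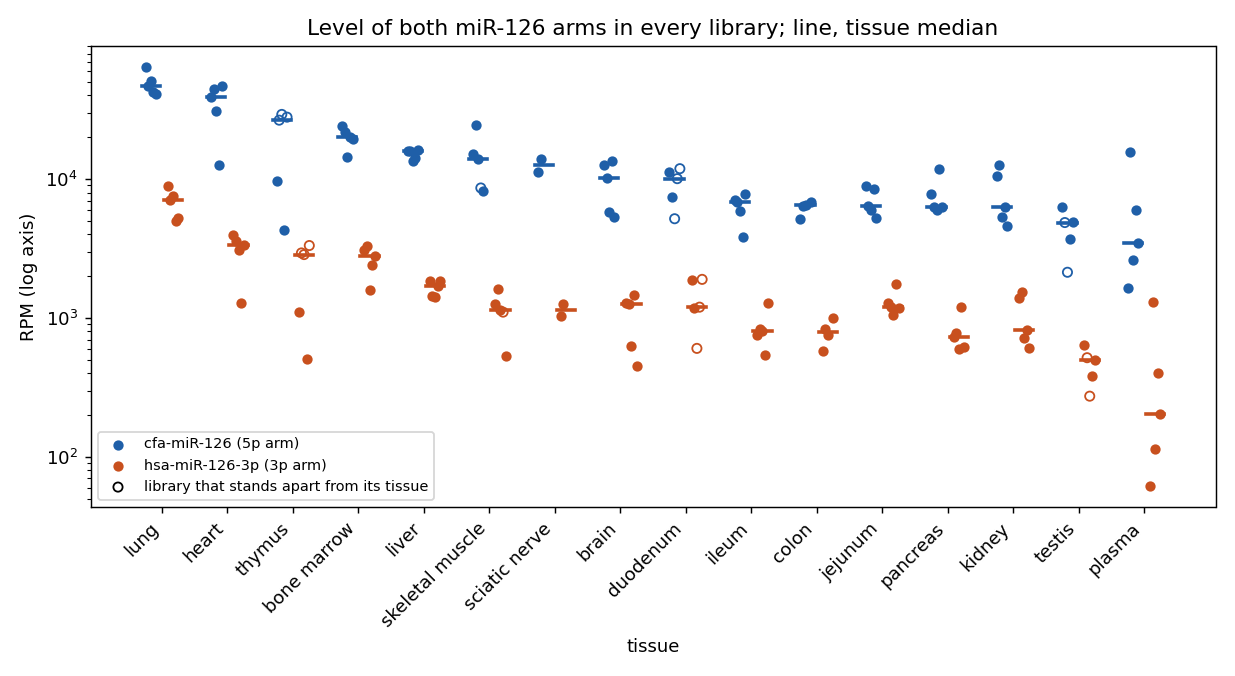
RPM (log axis) of cfa-miR-126 (blue) and hsa-miR-126-3p (orange) in each of 76 libraries by tissue, ordered by the 5p tissue median, with lines at the medians and open circles for the 9 libraries that stand apart. The 3p arm lies below the 5p arm in every library, and the 5 lung libraries (5022 to 8931 RPM) lie above all other libraries for the 3p arm.

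Against the mean of the other 15 tissues, the 5p arm was higher in lung by 1.97 (log2 fold change, SE 0.22, adjusted p = 4.31e-11) and the 3p arm by 2.29 (SE 0.22, adjusted p = 1.33e-13; edgeR's quasi-likelihood test with Benjamini-Hochberg adjustment over 480 miRNAs). In the same comparison 20.6% of all tested miRNAs were called higher in lung. Without the libraries that stand apart, the changes in lung were 2.11 and 2.43.

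By the study's criterion for a tissue enriched (TE) miRNA, a tissue mean over 5 times the mean of the remaining samples with an adjusted rank-sum p below 0.05, the 3p arm was TE in lung. Its fold there was 5.09 (6779 against 1332 RPM, adjusted p = 1.76e-05, two-sided exact rank-sum test), and 0.923% of the 650 miRNAs were TE in lung. The fold of the 5p arm in lung was 4.06 (48909 against 12059 RPM, adjusted p = 1.91e-04, same exact test), below the limit of 5. The study itself reported no TE miRNA in lung, so the calls in lung here differ from its result, and the reason was not tested. The 3p fold was close to the limit. It was 4.69 without lung replicate 1, 4.94 without lung replicate 3 and 4.96 with TMM scaling, and the call was lost in each case. With medians in place of means the 5p arm passed too, with a fold of 5.39. Neither arm was TE in any other tissue, and neither reached the stricter HTE criterion. For 1 tissue it requires 5 times the highest sample elsewhere, and the lung median was 1.81 times (3p) and 1.00 times (5p). For 2 tissues the second median must exceed 70% of the first and the third stay under 20%. Lung, heart and thymus had medians of 46480, 39076 and 26541 RPM (5p), so the third was too high. For the 3p arm heart (3369 RPM) was below 70% of lung (7122 RPM).

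Heart was next in the order of medians for both arms. The 5p arm was at 39076, 44267, 30853, 12724 and 46484 RPM in heart (34681 ± 13668, n = 5), and the 3p arm at 3937, 3592, 3111, 1291 and 3369 RPM (3060 ± 1035, n = 5). Replicate 4 was the low library for both arms. The fitted change was 1.98 for the 5p arm (SE 0.22, adjusted p = 9.36e-12) and 1.63 for the 3p arm (SE 0.24, adjusted p = 2.43e-08), where 21.9% of all tested miRNAs were called higher. Scaling with DESeq2 size factors put heart above lung for the 5p arm, with medians of 40387 and 28767 normalised reads per 1000000. Lung stayed first for the 3p arm, at 4121 against 3303 normalised reads per 1000000. The order of lung and heart for the 5p arm therefore depends on the scaling.

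Apart from thymus, bone marrow, liver and skeletal muscle followed for the 5p arm, and skeletal muscle was the tenth for the 3p arm. Bone marrow libraries ran from 14425 to 24145 RPM of the 5p arm (19950 ± 3620, n = 5) and from 1594 to 3309 RPM of the 3p arm (2643 ± 679, n = 5). Bone marrow holds blood cell precursors and a dense bed of sinusoids. The change was 0.71 for the 3p arm (SE 0.26, adjusted p = 0.0219, 16.5% of miRNAs called higher) and 0.42 for the 5p arm (SE 0.26, adjusted p = 0.219). With 1 library of the series left out, the 5p arm stayed short of the limit in 34 of 76 fits and passed in the rest (0.21 to 1.00). The 3p call held in 69 of 76. With DESeq2 size factors or libraries scaled by size only, the 5p arm was higher too (0.73, adjusted p = 0.00734, and 0.88, adjusted p = 0.00467), as it was without the libraries that stand apart (0.56, adjusted p = 0.0125). Bone marrow RNA was extracted with another reagent than the organs, and tissue and extraction cannot be told apart. The median change of all tested miRNAs in bone marrow was -0.97 with TMM scaling. Across 3 scalings of the filtered edgeR fit, the 5p arm was above the median of its fit by 1.39 to 1.54. The 3p arm was above it by 1.68 to 1.79. These values depended on the filter and the test. The median was -0.39 without the filter and 0.18 in the DESeq2 Wald test, and the 5p arm was then above it by 1.22 and 0.55.

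Liver had the smallest spread of the 5p arm relative to its mean, from 13585 to 16196 RPM (15193 ± 1189, n = 5), with 1652 ± 212 RPM of the 3p arm (n = 5). Neither arm passed the test in liver (0.58, adjusted p = 0.0667, and 0.53, adjusted p = 0.115, edgeR). In skeletal muscle the 5p arm was at 15259, 24569, 13960, 8628 and 8265 RPM (14136 ± 6613, n = 5). It was higher by 1.15 (SE 0.24, adjusted p = 6.75e-05, 26.5% of miRNAs called higher), but by 0.35 (adjusted p = 0.336) with libraries scaled by their size only. The 3p arm there was at 1265, 1608, 1139, 1102 and 532 RPM, with a change of 0.54 (SE 0.26, adjusted p = 0.0953). Its change was negative with libraries scaled by size only. The mean RPM in muscle was 0.65 times that of all other libraries for the 3p arm and 0.97 times for the 5p arm. Without the libraries that stand apart, and with TMM scaling, both arms were called higher in skeletal muscle (1.46 and 0.76, adjusted p = 0.0048 for the 3p arm). Both were then called higher in liver too (0.66, adjusted p = 0.00278, and 0.61, adjusted p = 0.016, edgeR). With every library in the fit, 23.3% of all miRNAs were called higher in liver. That fit was run with TMM scaling only.

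**Figure D2:**
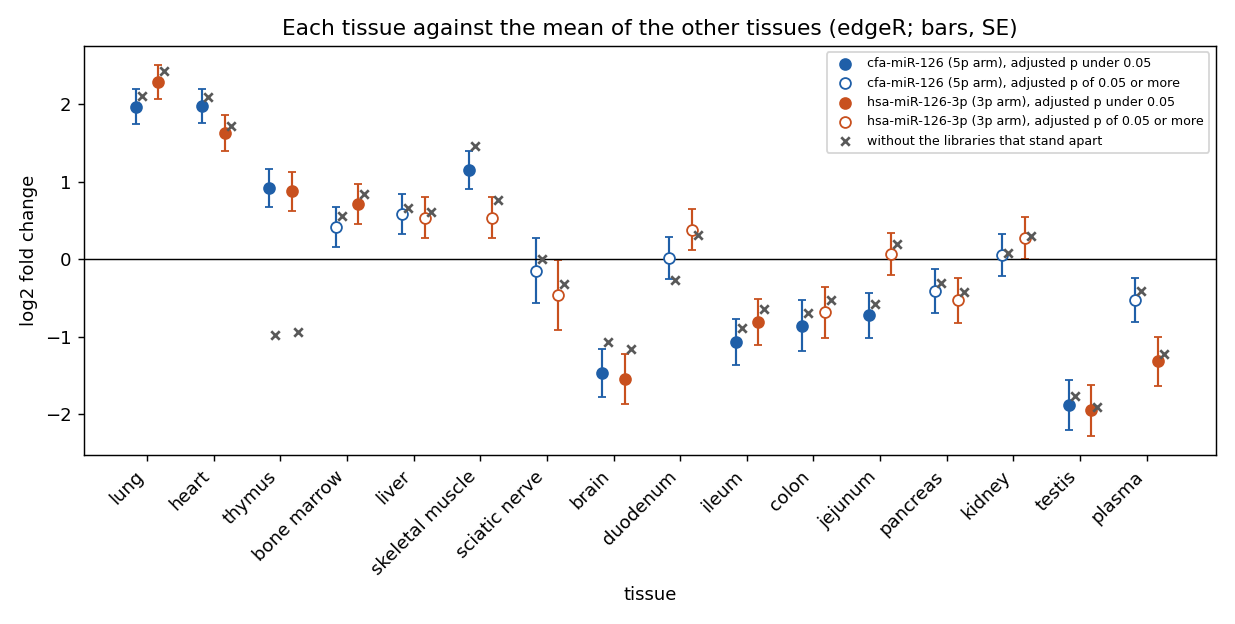
Log2 fold change of each arm in each tissue against the mean of the other 15 (edgeR, bars 1 SE), filled where the adjusted p is under 0.05, with crosses for the fit without the 9 libraries that stand apart. Lung (1.97 and 2.29) and heart (1.98 and 1.63) are highest, testis (-1.89 and -1.95) lowest, and the thymus crosses lie on the other side of 0.

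Testis had less miR-126 than the mean of the other tissues, and brain did under some scalings. In testis the 5p arm was at 6307, 4865, 2134, 3730 and 4879 RPM (4383 ± 1554, n = 5) and the 3p arm at 274 to 641 RPM (463 ± 140, n = 5). The changes were -1.89 (SE 0.32, adjusted p = 1.03e-06) and -1.95 (SE 0.33, adjusted p = 1.06e-06), where 16.0% of miRNAs were called lower. Without the libraries that stand apart they were -1.77 and -1.91, and with any 1 library of the series left out they stayed between -2.16 and -1.71 for the 5p arm. In brain, which had 5306 to 13577 RPM of the 5p arm and 452 to 1461 RPM of the 3p arm, the changes were -1.47 (SE 0.31, adjusted p = 2.32e-05) and -1.55 (SE 0.32, adjusted p = 1.71e-05), and 28.1% of miRNAs were called lower. By median RPM, brain was number 8 of 16 tissues for the 5p arm (10172 RPM) and number 6 for the 3p arm (1262 RPM). The brain calls depended on the scaling. They held with DESeq2 size factors (-0.67, adjusted p = 0.0224, and -0.73, adjusted p = 0.0121). With libraries scaled by size only they were lost, and the changes were -0.26 (adjusted p = 0.465) and -0.34 (adjusted p = 0.377), and the median change of all miRNAs in brain was 1.22, against 0.13 with TMM scaling. Relative to that median the 5p arm in brain was at -1.60 to -1.48 and the 3p arm at -1.67 to -1.56 across 3 scalings.

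In the intestine the result differed by segment and arm. The 5p arm averaged 9157 ± 2792 RPM in duodenum, 7003 ± 1610 in jejunum, 6283 ± 1530 in ileum (n = 5 each) and 6216 ± 740 in colon (n = 4). It was called lower in ileum (-1.07, SE 0.30, adjusted p = 0.00428, 8.75% of miRNAs called lower), colon (-0.86, SE 0.33, adjusted p = 0.0442, 6.46% called lower) and jejunum (-0.73, SE 0.29, adjusted p = 0.0375, 13.1% called lower). Of these tissues the 3p arm was called lower in ileum (-0.81, SE 0.30, adjusted p = 0.0337). The colon and jejunum calls were lost with size-only scaling (adjusted p = 0.0518 and 0.0587), and they held in 25 and 32 of 76 fits with 1 library left out. Size-only scaling also ended the 3p call in ileum (adjusted p = 0.173). Kidney (7886 ± 3537 RPM of the 5p arm), pancreas (7623 ± 2457 RPM, both n = 5) and sciatic nerve (11277 and 13929 RPM) passed the test for neither arm, nor did duodenum.

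Thymus was the third by its median, but its libraries did not form 1 group. Replicates 2, 3 and 5 had 26541, 29193 and 27897 RPM of the 5p arm, and replicates 1 and 4 had 9684 and 4287 RPM. The 3p arm was at 2939, 2861 and 3324 RPM in the former and at 1099 and 505 RPM in the latter. The 3 high libraries were those that stand apart. Their cfa-miR-181a, a miRNA abundant in immature T cells, was at 52264, 41991 and 53348 RPM, against 426312 and 500018 RPM in replicates 1 and 4. Their cfa-miR-142, found in blood and lymphoid cells, was at 234 to 335 RPM against 14022 and 8991 RPM. Blood cell miRNAs did not move together there. The summed level of the 9 blood cell rows was higher in the libraries that stand apart, at 64071, 92893 and 45520 RPM against 39690 and 17686 RPM, and cfa-miR-451 was at 1812, 1407 and 1388 RPM against 3306 and 269 RPM. In the libraries that stand apart, cfa-miR-142 and cfa-miR-451 were a small part of that sum. The study lists cfa-miR-486, another of these rows, among the most abundant miRNAs of thymus. The summed level of 9 smooth muscle and fibroblast rows was 136250, 95019 and 98941 RPM, against 35472 and 16878 RPM. That of the endothelial and angiogenic list, described below, was 360725, 384497 and 408031 RPM, against 113733 and 87541 RPM. Epithelial rows summed to 133, 156 and 349 RPM, against 5000 and 5801 RPM.

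**Figure D3:**
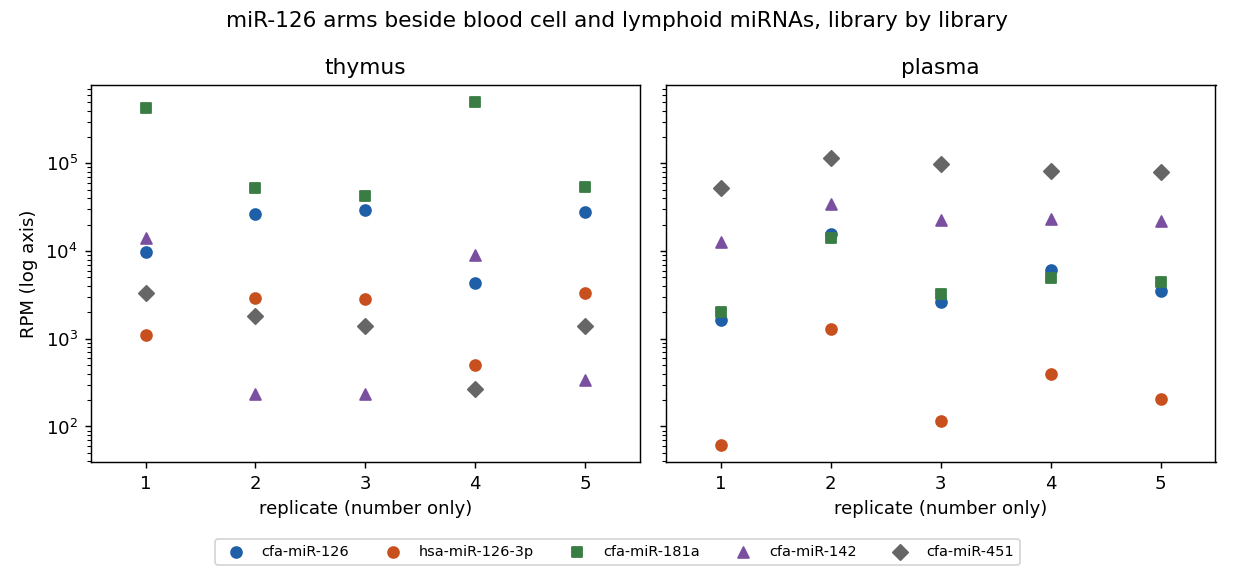
RPM (log axis) of both miR-126 arms, cfa-miR-181a, cfa-miR-142 and cfa-miR-451 in each thymus and plasma library (replicate numbers are names only). In thymus, replicates 2, 3 and 5 are high in miR-126 (5p arm 26541 to 29193 RPM) and low in cfa-miR-142 (234 to 335 RPM), and in plasma, replicate 2 is highest for both arms.

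With all 5 thymus libraries the 5p arm was called higher (0.92, SE 0.25, adjusted p = 0.00288) and so was the 3p arm (0.88, SE 0.25, adjusted p = 0.00655), where 21.2% of miRNAs were called higher. Without the libraries that stand apart the direction turned. The 5p arm was then lower (-0.97, SE 0.34, adjusted p = 0.03), and the 3p arm had a change of -0.94 (SE 0.38, adjusted p = 0.0645), both resting on 2 thymus libraries. In that fit the median change of all tested miRNAs in thymus was -0.11. The share of miRNAs called lower in it is not given here. The level of miR-126 in thymus thus differs by which libraries represent the tissue, and the part of other tissue in these libraries was not tested.

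In RPM, plasma had the lowest medians of both arms and the widest spread relative to the mean, although the mean of the 5p arm was lower in testis. With TMM scaling testis had the lowest medians of both arms. The 5p arm was at 1645, 15785, 2613, 6020 and 3472 RPM (5907 ± 5756, n = 5), and the 3p arm at 61.9, 1309.3, 114.6, 401 and 203 RPM (418 ± 515, n = 5). Of the plasma libraries, 3 lay below all other libraries for the 3p arm. The study describes RNA isolation from plasma apart from that of the organs and reports low RNA integrity for plasma. Tissue and RNA preparation therefore cannot be told apart in plasma. The 3p arm was lower in plasma (-1.32, SE 0.31, adjusted p = 2.21e-04, 24.8% of miRNAs called lower), and the 5p arm did not pass (-0.53, SE 0.28, adjusted p = 0.117). The 3p call was lost without either sciatic nerve library, with changes as near to 0 as -0.59 (adjusted p = 0.12). The median of all miRNAs in plasma was -0.59 with TMM scaling, -0.36 without the filter and -0.22 in the DESeq2 Wald test. Relative to the median of its fit, the 3p arm was at -0.76 to -0.68 across 3 scalings of the filtered edgeR fit. The 5p arm was at 0.03 to 0.09.

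Replicate 2, the highest plasma library for both arms, was also the highest for cfa-miR-223 (1501 RPM against 116 to 507 RPM), a myeloid and platelet miRNA, for cfa-miR-142 (34644 against 12752 to 23395 RPM) and for cfa-miR-181a (14267 against 2034 to 4924 RPM). It was also the highest for cfa-miR-451, a red cell miRNA (116508 against 52993 to 98088 RPM). The summed level of the 9 blood cell rows went the other way, since it was lowest in replicate 2 (585562 RPM against 625996 to 829684 RPM). That sum mostly reflects 1 row, cfa-miR-486, which had a plasma median of 579253 RPM. The part of blood cells in the plasma values was not tested. Without that library the 5p arm was called lower too, with a change of -1.03 (adjusted p = 0.00411, edgeR).

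Neighbours in the order of tissue medians were compared with two-sided exact permutation tests on log2(RPM + 1). Of the 30 pairs of neighbours (15 for each arm), 0 passed after adjustment and 5 had an unadjusted p under 0.05. The smallest p that 5 against 5 libraries can give is 0.00794. The only pair whose ranges did not overlap was lung and heart for the 3p arm, with a log2 difference of 1.21 (exact permutation p = 0.00794, adjusted p = 0.19). All other pairs had overlapping ranges. Of these, bone marrow and liver (both arms), liver and brain (3p arm) and pancreas and testis (3p arm) were the pairs with an unadjusted p under 0.05, and their adjusted p was 0.19 (exact permutation test).

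The arms followed each other across tissues. Over 16 tissue medians the Spearman correlation was 0.909 and the Pearson correlation of log2 values 0.947, as a description, since both arms come from the same libraries. In RPM the highest tissue median was 13.4 times the lowest for the 5p arm and 35.0 times for the 3p arm, lung over plasma in both. The lowest tissue depended on the scaling, as given above. The 5p arm had more reads in all 76 libraries. The reads of the 5p arm per read of the 3p arm, called the arm ratio, had a median of 8.61 and ranged from 4.46 to 25.9 (with 0.5 reads added to each arm). The ratios of single libraries given below are of the reads as counted.

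The arm ratio differed between tissues. Tissue accounted for 78.2% of the sum of squares of the log2 arm ratio (F = 14.3, permutation p = 1e-05, the smallest that 100000 permutations can give), and the SD within tissues was 0.22. Plasma had the highest ratio and jejunum the lowest. For the plasma ratio too, tissue and RNA preparation cannot be told apart. The ratios in plasma were 26.6, 12.1, 22.8, 15.01 and 17.1, and the library with the highest level of the arms had the lowest ratio. Plasma was above the mean of all other libraries by 1.07 on the log2 scale (mean 4.16 ± 0.45, n = 5, against 3.09 ± 0.35, n = 71, adjusted p = 7.19e-05, two-sided exact rank-sum test over 16 tissues), with 3 of 5 libraries above every other. The lowest 3p count, 17 reads beside 452 reads of the 5p arm, leaves that library's ratio between 16.5 and 43.0 (95% Wilson interval, counting error only).

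In jejunum the ratios were 6.94, 5.36, 5.72, 4.76 and 4.47, and 4 of 5 libraries lay below every library of the other tissues. The log2 mean was 2.43 ± 0.25 (n = 5) against 3.21 ± 0.40 (n = 71), a difference of -0.78 (adjusted p = 7.19e-05, two-sided exact rank-sum test). Duodenum, next to it in the order, had a median ratio of 6.30 and did not pass (adjusted p = 0.0999, exact rank-sum test), nor did ileum at 7.38 (adjusted p = 0.207, same exact test). The 2 duodenum libraries that do not stand apart had ratios of 5.96 and 6.30, within the range of the jejunum libraries. The 3 that stand apart had 8.57, 8.41 and 6.26. Jejunum and duodenum averaged 1295 ± 279 and 1352 ± 545 RPM of the 3p arm (n = 5 each) beside the 5p means given above, and the levels of these tissues were not tested against each other.

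**Figure D4:**
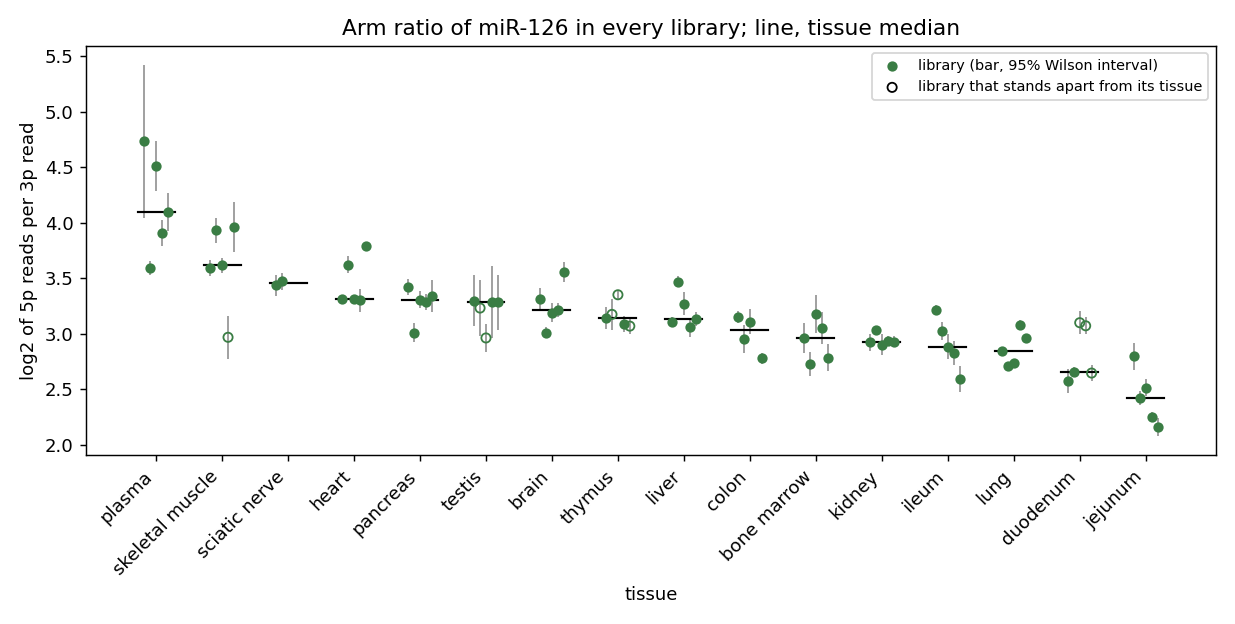
Log2 of 5p reads per 3p read in each library by tissue, ordered by the tissue median (line), with 95% Wilson intervals and open circles for the 9 libraries that stand apart. Plasma is at the top (median ratio 17.1) and jejunum at the bottom (5.36), and the medians of all other tissues lie between.

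Skeletal muscle had a median ratio of 12.3 and heart of 9.92, and each had an adjusted p = 0.0577 (exact rank-sum test). In skeletal muscle the ratios were 12.1, 15.3, 12.3, 7.83 and 15.5, and the low one belonged to replicate 4, which stands apart. Without the libraries that stand apart the muscle difference was 0.64 (adjusted p = 0.00717, exact rank-sum test). In lung, where the 3p arm alone was TE, the ratio had a median of 7.19 and did not pass (difference -0.31, adjusted p = 0.111, exact rank-sum test). An unequal enrichment of the arms in lung was therefore not shown. In thymus, where the level of the 5p arm ranged 6.81-fold, the ratio stayed between 8.39 and 10.2.

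The arm ratio of miR-126 varied less over tissues than that of most hairpins. Among 45 hairpins with both arms in the table, the tissue medians of the log2 ratio spanned 1.67 for miR-126 and had a median span of 3.34. Smaller spans were found for miR-199a (1.58) and miR-22 (1.67), and the next larger ones for miR-148a (2.06), miR-99a (2.19) and miR-423 (2.20). Many minor arms had few reads, which widens a span. Among the 11 hairpins with both arms at 10 RPM or more in every tissue median, miR-126 was again the third smallest, and the median span was 2.37. The direction in plasma was not general. Against the median of the other tissues, 13 of 45 hairpins shifted to the 5p arm in plasma and 30 to the 3p arm, and miR-126 shifted to the 5p arm by 0.96. In jejunum 26 hairpins shifted to the 3p arm, and miR-126 was among them, at -0.72 on the log2 scale.

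**Figure D5:**
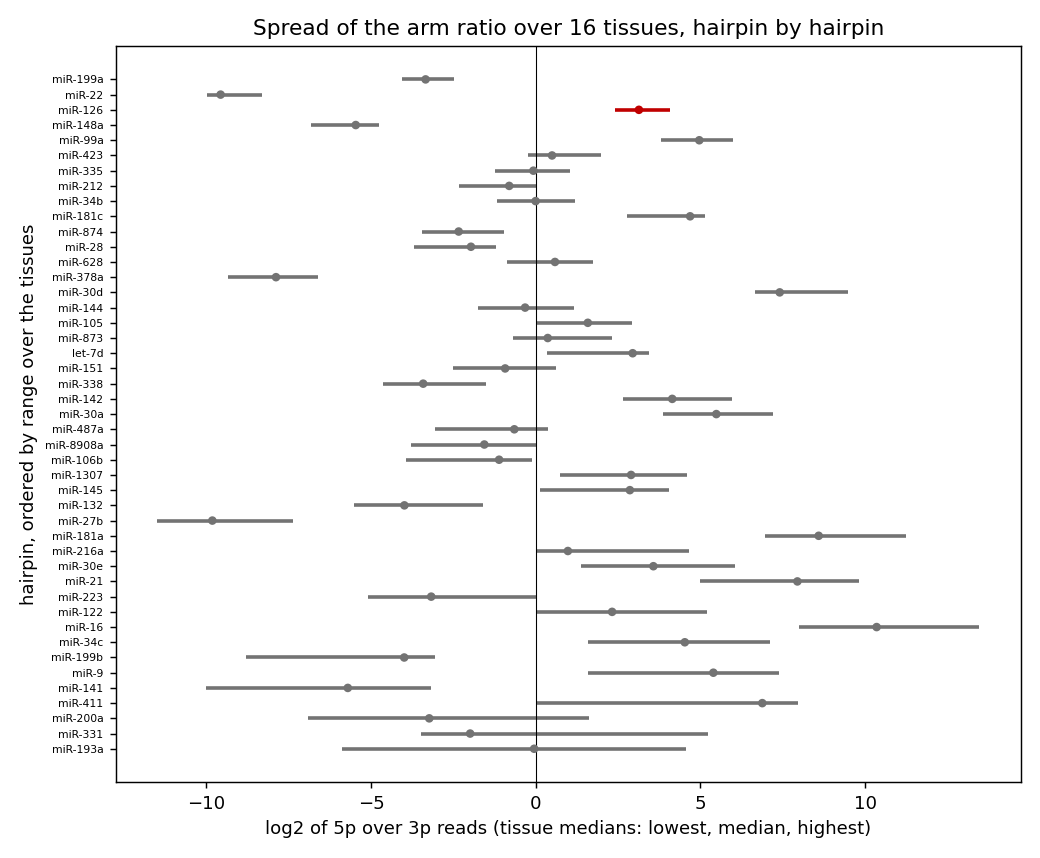
Lowest, median and highest tissue median of the log2 ratio of 5p over 3p reads for 45 hairpins, ordered by span, with miR-126 in red. The span of miR-126 (1.67) is the third smallest.

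The miRNAs whose tissue medians were most like those of the arms were sought among 265 highly expressed miRNAs (above 100 RPM in a tissue median). The other arm was the most alike in both cases. For the 5p arm cfa-miR-181b (Spearman 0.635 over 16 tissues), cfa-miR-193a (0.632), cfa-miR-197 (0.606) and cfa-miR-365 (0.591) followed. For the 3p arm they were cfa-miR-197 (0.706), cfa-miR-181b (0.662), cfa-miR-193a (0.626) and cfa-miR-24 (0.624). The median over all 265 miRNAs was 0.05 for both arms. The likeness of these miRNAs to the arms was thus well below that between the arms.

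Other miRNAs linked to endothelial cells and vessel growth, a list of 14 miRNA names, gave 20 tested rows. In lung 10 of 20 were called higher and 3 lower (20.6% and 8.75% of all tested miRNAs), with a median log2 change of 0.62 against -0.19 over all tested miRNAs. Higher in lung were cfa-miR-23a (1.94) and cfa-miR-24 (1.55), which share a cluster, cfa-miR-130a (1.25), and cfa-miR-210 (2.36), the miRNA of the hypoxia response. Lower in lung were cfa-miR-10b (-2.60), hsa-miR-10b-3p (-2.90) and hsa-miR-139-5p (-1.33). In heart 9 of 20 were called higher and 3 lower, against 21.9% and 17.3% of all tested miRNAs (median 0.80 against -0.14), with cfa-miR-130a at 1.68 and cfa-miR-27b at 1.52. Lower in heart were cfa-miR-221 (-1.80), its 5p arm hsa-miR-221-5p (-1.14) and cfa-miR-222 (-1.83).

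In brain 13 of 20 were called lower and 5 higher, against 28.1% and 45.2% of all tested miRNAs (median -1.25 against 0.13). The lower ones included cfa-miR-10a (-7.44) and cfa-miR-23a (-3.51), and the higher ones both arms of miR-139 (3.86 and 3.32) and cfa-miR-222 (1.57). In testis 9 were called lower and 6 higher, against 16.0% and 34.0% of all tested miRNAs, with cfa-miR-221 at -2.57 and cfa-miR-10b at 2.35. The list did not move as 1 group in any of these tissues. By Spearman correlation of tissue medians, its members ran from -0.22 for cfa-miR-92a to 0.58 for cfa-miR-27b with the 5p arm among those highly expressed.

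The list of 7 blood cell miRNA names gave 9 tested rows. All 9 were called higher in plasma, against 27.9% of all tested miRNAs, with a median change of 5.33 and 6.25 for cfa-miR-223, and 8 of 9 were called higher in bone marrow (median 3.37, cfa-miR-223 8.49), against 16.5% and a median of -0.97 over all tested miRNAs. Both tissues had high blood cell miRNAs. With every library and TMM scaling, the 3p arm was called higher in bone marrow and lower in plasma, and the 5p arm passed in neither. The part of blood cells in these levels was not tested. In lung, where 20.6% of all tested miRNAs were called higher and 8.75% lower, 3 of 9 blood cell rows, 5 of 9 smooth muscle and fibroblast rows and 10 of 11 epithelial rows were called higher, and 0 of each list lower. In heart, where 21.9% of all tested miRNAs were called higher and 17.3% lower, 1 of 9 blood cell rows was called higher and 4 lower. Of the smooth muscle and fibroblast rows in heart 5 of 9 were called higher and 0 lower, and of the epithelial rows 0 of 11 were called higher and 4 lower.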

How the data were processed

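The authors clipped adaptors, aligned reads to CanFam3.1 with OSA without mismatches, dropped reads at more than 10 locations and counted reads that overlapped a dog, rat or human miRNA locus by at least 70%. The deposited counts, the deposited total count of reads on miRNAs and the deposited RPM (count per 1000000 reads of that total) were used. RPM recomputed from the counts differed by a relative 2.89e-09 at most. Rows not listed in a library were set to 0. Of the table's 77 sample names, 1, a sciatic nerve pool, was not assigned and not used, and 1 labelled colon sample was not analysed here.

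Members and lists were chosen with earlier results of these data known. Tissues were tested with edgeR 4.0.16 (TMM, filterByExpr, quasi-likelihood, all 16 tissues in 1 fit, Benjamini-Hochberg within a tissue, limit 0.05) in R 4.3.3, with DESeq2 1.42.0 as an alternative. TE calls and arm ratios used two-sided exact rank-sum tests, and the F test used 100000 permutations (Python 3.11.15, scipy 1.17.1). All p-values treat the libraries as independent, although the study took its tissues from 5 dogs. In the rank-sum tests the spread includes that between the other tissues, since 1 tissue is set against the libraries of all others. The F test permuted the tissue labels over all libraries. The procedures were tested on simulated data. Named were both arms in every tissue, the 5 miRNAs most like each arm, list members, tissue-defining miRNAs and the 3 hairpins next to miR-126 on either side (fewer where the order ended). The other miRNAs quoted for single thymus and plasma libraries were named after their values were seen. A library stood apart where its tissue's defining miRNA was below 15% of the tissue's highest library. Alternatives covered scaling, filter, test, pseudocount, reference of the fold, tissues used and each library left out. No miRNA sequences were used here.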

Additional observations from a re-analysis of the deposited data

Results flagged for a closer look

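Of 45 groups of 4 or 5 libraries (both arms and the log2 arm ratio in 15 tissues), 4 held a library farther from the rest than Dixon's 95% limit (0.71 of the group's range for 5 libraries), and chance flags about 1 in 20 groups. They were the 3p arm in pancreas replicate 4, at 1209.8 RPM, and in plasma replicate 2, at 1309.3 RPM, and the log2 arm ratio in kidney replicate 2, at 3.04, and in testis replicate 3, at 2.96. Testis replicate 3 is among the libraries that stand apart from their tissue. The arms also differed from each other by more or less than elsewhere in plasma, where the log2 arm ratio was 1.07 above the mean of all other libraries, and in jejunum, where the difference was -0.78 (adjusted p = 7.19e-05 for each, two-sided exact rank-sum test).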

How the results depend on the processing

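No paired analysis was possible because the labels carry no replicate or dog number. Leaving out the libraries that stand apart, the hairpins above 10 RPM and the neighbours under other scalings (0 pairs past the limit in each) were added after seeing the data. In edgeR, lung, heart and testis kept direction and call for both arms under every alternative, each library left out included. The median change of all miRNAs over the tissues ran from -0.97 to 0.32 with TMM, from -0.74 to 0.87 with DESeq2 size factors and from -1.02 to 1.22 with library size only. Where a change is not explained by fewer libraries or miRNAs in the fit, the cause was not tested.

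The count of tissues with a lower 5p arm was 5 and became 3 with library size only and 3 without the filter, and that of a lower 3p arm was 4 and became 2 with library size only. With 1 library left out these counts ran from 3 to 5 and from 2 to 4, the latter low only without either sciatic nerve library. TE calls were 0 for the 5p arm, 1 with medians, and 1 for the 3p arm, 0 with TMM scaling and 0 to 1 with 1 library left out. The tissues with a higher arm ratio were 1, 2 without the libraries that stand apart, and 1 to 3 with 1 library left out.

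Directions turned mostly for changes near 0 that passed no test. The 5p change in duodenum (0.02) became -0.16 with DESeq2 size factors, -0.16 in the DESeq2 Wald test, -0.32 with library size only, -0.010 without the filter, -0.025 without plasma and bone marrow and -0.26 without the libraries that stand apart. In kidney the 5p change (0.06) became -0.25 with DESeq2 size factors, in the DESeq2 Wald test and without the filter, -0.55 with library size only, -0.046 without plasma and bone marrow and -0.0029 without sciatic nerve. The 3p change in kidney (0.28) became -0.019 with DESeq2 size factors, -0.020 in the DESeq2 Wald test, -0.024 without the filter and -0.35 with library size only. The 3p change in jejunum became -0.028 with DESeq2 size factors and -0.028 in the Wald test. With library size only the sciatic nerve 5p change became 0.17 and the skeletal muscle 3p change -0.18. Without the libraries that stand apart, the thymus changes were -0.97 (5p) and -0.94 (3p) and its arm ratio difference -0.062.

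With 1 library left out, 5p changes ran from -0.24 to 0.12 in duodenum, -0.41 to 0.26 in kidney, -0.64 to 0.022 in pancreas and -1.03 to 0.15 in plasma, and 3p changes from -0.010 to 0.21 in jejunum and -0.16 to 0.47 in kidney. Arm ratio differences ran from -0.014 to 0.088 in liver and -0.043 to 0.028 in thymus. The 5p result kept its side of the limit in 34 of 76 such fits in bone marrow (0.21 to 1.00), 25 in colon and 32 in jejunum (adjusted p up to 0.224 and 0.155). The 3p call was lost in some fits in bone marrow (0.43 to 1.32), ileum (up to 0.107) and thymus, where the 5p call was lost as well (up to 0.0614 without replicate 3 for the 5p arm and 0.0718 without replicate 5 for the 3p arm, edgeR).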
